A study of Homo sapiens with 48 samples.

Results

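The effect of SNX631, an inhibitor of the Mediator kinases CDK8 and CDK19, was measured in Rv1-Luc cells kept in androgen-depleted serum. The 6 libraries of this comparison are 3 treated with SNX631 and 3 treated with vehicle, out of 48 libraries in the series, and were chosen by the line, medium and treatment in their titles. Every gene with enough counts was tested, 20009 of 61817 entries. Parental 22Rv1 (Rv1-WT) is a castration-resistant human prostate cancer cell line. Rv1-Luc is 22Rv1 transduced with a lentivirus for firefly luciferase (FfLuc) together with a blasticidin resistance gene (BlastR), used as a transduced population. The cells of all 6 libraries were passaged in medium with charcoal-stripped serum (CSS), from which androgens have been removed, and were then treated in CSS for 72 hours with 500 nM SNX631 in the treated group and with 0.1% DMSO in the vehicle group. Each group is a biological triplicate per the study's design. For comparison the same treatment was read in Rv1-Luc in fetal bovine serum (FBS), in Rv1-WT in CSS and FBS, and in FBS in the derivatives that lack both endogenous kinases and carry active CDK8 (dKO-8), active CDK19 (dKO-19) or a kinase-dead form of either (dKO-8M, dKO-19M).

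Mediator is a large complex that passes signals from DNA-bound transcription factors to RNA polymerase II. A detachable module of it contains a kinase, either CDK8 or its paralog CDK19, which phosphorylates transcription factors and parts of the transcription machinery, and loss of its activity is known to raise some genes and lower others. CDK19 is known to be highly expressed in prostate cells, where androgen induces genes such as the kallikreins. ATF4, which appears repeatedly in the results, is the transcription factor that induces amino acid synthesis and import when amino acids run short or proteins misfold.

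The vehicle libraries held 27.32, 21.21 and 20.71 M counts and the SNX631 libraries 19.52, 20.27 and 20.36 M counts. FfLuc was counted 10231 to 13996 times in each of the 6 libraries, as the label of the subline says. The 12 prostate epithelial markers were all detected, with a summed level of 3450 to 3530 CPM (counts scaled to the same library total) under vehicle and 3500 to 3690 CPM under SNX631. Of 6 endothelial markers, 3 were at 0 in all 6 libraries and the summed level was at most 0.303 CPM. The 5 basal epithelial markers summed to at most 2.63 CPM, the 7 fibroblast markers to 10.2 to 16.1 CPM and the 10 leukocyte markers to 2.4 to 4.31 CPM. Of the 12 prostate epithelial markers 4 rose and 1 fell. In the basal, fibroblast, endothelial and leukocyte lists the calls were the basal keratin KRT15, the fibroblast genes COL3A1 and LUM and the B-cell gene MS4A1. Each had a mean under 1 CPM under vehicle except LUM. The call for MS4A1 was lost in 7 of 10 alternatives. Of the 14 plasma cell and immunoglobulin markers 10 were tested, 4 rose and none fell, and their summed level was 78.9 to 87.8 CPM under vehicle and 144 to 166 CPM under SNX631. Most of that sum was SDC1, which epithelial cells also express (79.1 and 133 CPM on average). Transcripts of immunoglobulin genes differed between the groups. Their summed counts were 269, 277 and 224 in the vehicle libraries and 1158, 667 and 418 in the SNX631 libraries, while Rv1-WT in CSS had 64.5 to 81.3 per library. In Rv1-Luc in FBS the order was the other way, with 654 to 1471 under vehicle and 263 to 786 under SNX631. Where these reads come from, and their part in the results below, was not tested.

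SNX631 changed 813 genes in Rv1-Luc in CSS with more than a 1.5-fold change and a Benjamini-Hochberg false discovery rate (FDR) below 0.01. These are 4.06% of the genes tested. They comprised 490 genes that rose (2.45%) and 323 that fell (1.61%), and 337 changed more than 2-fold (222 higher, 115 lower). The median log2 fold change over all tested genes was 0.0072, so that changes are relative to a centre near 0. Levels are given as CPM with library sizes adjusted by TMM, edgeR's trimmed mean method, and a gene whose 3 SNX631 libraries all lie above or all below the 3 vehicle libraries is said not to overlap. That held for 7079 genes, or 35.4% of all tested. Among the 813 called genes all but 11 did not overlap. The calls were most frequent at low to moderate levels: 8.16% of genes with a mean of 1 to 10 CPM were called, against 2.91% of those under 1 CPM, 2.52% of those at 10 to 100 CPM and 2.81% of those above 100 CPM. At an FDR under 0.05 with no fold limit 2410 genes lay higher and 2368 lower.

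Of the 7 transcripts of the kinase module, CDK19 rose and none fell. CDK19 stood at 119.5, 119 and 119.6 CPM under vehicle and 209, 195 and 199 CPM under SNX631 (log2 fold change 0.75 ± 0.043 SE, edgeR FDR 2.07e-21), and the groups did not overlap. CDK8, its paralog, had a log2 difference of 0.081 with overlapping libraries, and the cyclin C gene CCNC one of -0.043. The structural subunits gave -0.043 for MED12, 0.22 for MED12L, -0.045 for MED13 and -0.21 for MED13L, and none of these passed the test.

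Outside the largest changes, the 6 genes with the lowest p-values comprised 5 that rose and 1 that fell. Choosing by p-value favours genes with tight replicates, so their tightness is not a separate result. BTG1, which encodes an antiproliferative cofactor, was at 126, 122 and 127 CPM under vehicle and 424, 416 and 424 CPM under SNX631 (log2 fold change 1.75 ± 0.038 SE, edgeR FDR 6.31e-42). PDK4, the kinase that turns off pyruvate dehydrogenase, was at 38.1, 33.2 and 36.7 CPM under vehicle and 128, 117 and 126 CPM under SNX631 (log2 fold change 1.78 ± 0.063 SE, edgeR FDR 9.62e-31). KLK4, a secreted kallikrein protease of the prostate, was at 22.2, 25.8 and 28.3 CPM under vehicle and 87.0, 72.9 and 88.4 CPM under SNX631 (log2 fold change 1.71 ± 0.071 SE, edgeR FDR 8.53e-27). In these 3 genes the lowest SNX631 library lay far above the highest vehicle library. Changes near 2-fold marked the others of the 6: SFN (stratifin, a cell cycle checkpoint protein) rose with a log2 fold change of 1.02 and PPP3CA (a catalytic subunit of calcineurin) with 0.95. PDIA4, a disulfide isomerase of the endoplasmic reticulum, fell by 1.16 on the log2 scale.

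**Figure D1:**
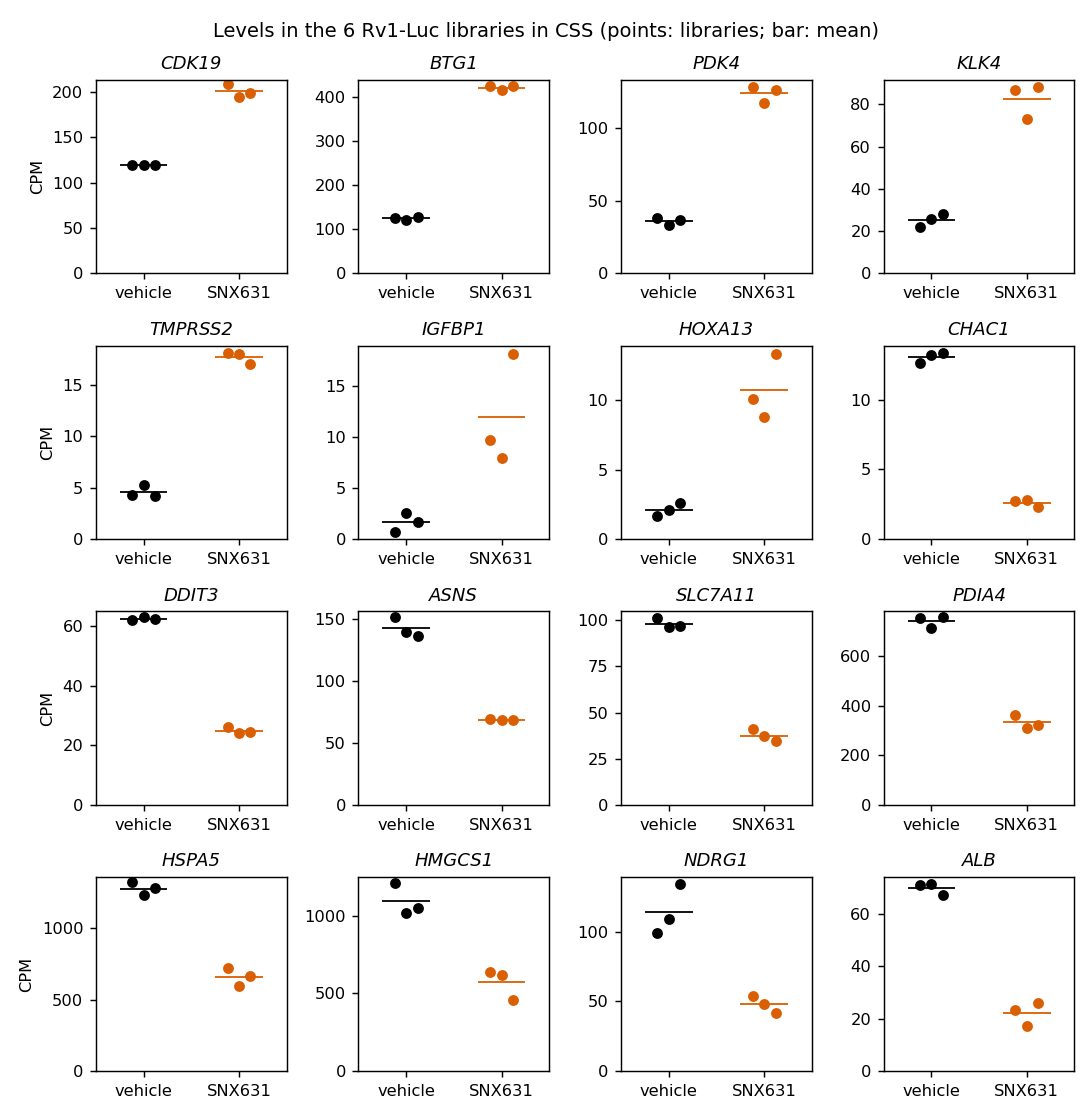
Levels of 16 genes in CPM (y axis, from 0) in the 3 vehicle and 3 SNX631 libraries of Rv1-Luc in CSS. Points are libraries and bars are group means, and no gene shown has overlapping groups: CDK19, BTG1, PDK4, KLK4, TMPRSS2, IGFBP1 and HOXA13 lie higher under SNX631, and the other 9 lower.

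The 12 largest rises among genes with a mean of at least 1 CPM ranged from 2.08 to 2.89 on the log2 scale, and in none did the groups overlap. AOX1, an aldehyde oxidase, was at 0.985, 1.8 and 1.48 CPM under vehicle and 9.66, 7.56 and 13.8 CPM under SNX631 (log2 fold change 2.89 ± 0.20 SE, edgeR FDR 4.57e-16). IGFBP1, a secreted binding protein for insulin-like growth factors, was at 0.739, 2.57 and 1.71 CPM under vehicle and 9.71, 7.93 and 18.0 CPM under SNX631 (log2 fold change 2.89 ± 0.32 SE, edgeR FDR 9.67e-09), and its SNX631 libraries spread more than 2-fold among themselves. Secreted hormone and growth factor genes were among the largest: CGA, the alpha subunit shared by the glycoprotein hormones, rose by 2.68 and FST, the activin-binding protein follistatin, by 2.08. The transcription factor genes were GATA3, at 1.79, 2.57 and 2.45 CPM under vehicle and 12.3, 12.0 and 13.1 CPM under SNX631 (log2 fold change 2.47 ± 0.14 SE, edgeR FDR 3.96e-21), HOXA13 (2.36), EVX1 (2.52) and TFCP2 (2.25). CAV1, the main protein of caveolae, was at 1.65, 1.8 and 1.85 CPM under vehicle and 7.46, 8.49 and 7.83 CPM under SNX631 (log2 fold change 2.17 ± 0.16 SE, edgeR FDR 2.40e-16). The others were the endothelin receptor gene EDNRA (2.22), the ameloblast-associated gene ODAM (2.62) and the B-cell adaptor gene BANK1 (2.26).

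The 12 largest falls ranged from -1.55 to -2.89 on the log2 scale, again without overlap in any. UGT2B10 and UGT2B15 encode glucuronosyltransferases, of which UGT2B15 inactivates androgens. UGT2B10 was at 1.72, 1.98 and 2.03 CPM under vehicle and 0.245, 0.0927 and 0.419 CPM under SNX631 (log2 fold change -2.89 ± 0.37 SE, edgeR FDR 2.54e-08). UGT2B15 was at 11.3, 10.0 and 10.8 CPM under vehicle and 4.12, 3.25 and 3.17 CPM under SNX631 (log2 fold change -1.61 ± 0.12 SE, edgeR FDR 1.89e-17). The 5 other UGT2B genes tested did not pass, and UGT2B17, which is near-identical in sequence to UGT2B15 so that reads may be shared, had a log2 difference of 1.14 (edgeR FDR 0.0368). ALB, the serum albumin gene, was at 71.0, 71.3 and 67.2 CPM under vehicle and 23.1, 17.2 and 26.0 CPM under SNX631 (log2 fold change -1.66 ± 0.089 SE, edgeR FDR 2.67e-18). RET, the receptor of the glial cell line-derived neurotrophic factor family, was at 2.67, 2.03 and 2.08 CPM under vehicle and 0.245, 1.21 and 0.513 CPM under SNX631 (log2 fold change -1.78 ± 0.26 SE, edgeR FDR 3.09e-07), with a SNX631 library close to the lowest vehicle library. HERC5, the ligase that attaches ISG15, fell by 2.11, DHRS2, a mitochondrial dehydrogenase, by 1.62 and NIBAN1, a stress-responsive gene, by 1.59. PPFIA4 (-2.60), BHLHE40 (-1.79), MIR210HG (-1.66) and SMIM2-AS1 (-1.55) completed the 12, and CHAC1 is described next.

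Regulators of the ATF4 stress response fell or lay lower under SNX631. Of 18 ATF4 stress regulators tested, 9 fell and none rose, all 18 lay below 0, and the median log2 fold change was -0.61. The factor itself, ATF4, was at 641, 630.4 and 608 CPM under vehicle and 424, 399.9 and 396 CPM under SNX631 (log2 fold change -0.62 ± 0.053 SE, edgeR FDR 5.52e-14). CHAC1, which degrades glutathione, had the largest fall, at 12.6, 13.2 and 13.3 CPM under vehicle and 2.75, 2.83 and 2.28 CPM under SNX631 (log2 fold change -2.31 ± 0.24 SE, edgeR FDR 1.72e-09). DDIT3, the proapoptotic factor CHOP, was at 62.1, 62.9 and 62.4 CPM under vehicle and 26.1, 24.1 and 24.6 CPM under SNX631 (log2 fold change -1.32 ± 0.057 SE, edgeR FDR 7.74e-27). DDIT3 had fractional counts in 4 of the 6 libraries, so that some of its reads were split with another feature or position and its value is uncertain. DDIT4, an inhibitor of mTOR complex signalling, fell by 1.05, NUPR1, a stress-induced chromatin protein, by 0.90, SESN2, a leucine sensor, by 0.71, and the dimer-forming factors JDP2 by 0.73, CEBPG by 0.66 and ATF3 by 0.59. The call for ATF3 was lost in 6 of 12 alternatives (-0.62 to -0.52) and that for JDP2 in 5 of 12 (-0.86 to -0.57). TRIB3 (-0.37), ATF5 (-0.52), CEBPB (-0.57), STC2 (-0.52), VLDLR (-0.23) and XPOT (-0.36) lay below 0 at an FDR under 0.05 but within the 1.5-fold limit. PPP1R15A, which ends the stress response by restoring translation, had a log2 difference of -0.078 with overlapping libraries.

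The promoters of the 4 called ATF4 regulator and amino acid synthesis genes with the largest falls are shown because the C/EBP-ATF response element is the known docking site of ATF4. They run from 250 bases before to 50 bases after the RefSeq start (RefSeq, GRCh38.p14), and capitals mark each match to its core, TGATGNAA, on either strand.
CHAC1 (chr15:40953221-40953520, plus strand): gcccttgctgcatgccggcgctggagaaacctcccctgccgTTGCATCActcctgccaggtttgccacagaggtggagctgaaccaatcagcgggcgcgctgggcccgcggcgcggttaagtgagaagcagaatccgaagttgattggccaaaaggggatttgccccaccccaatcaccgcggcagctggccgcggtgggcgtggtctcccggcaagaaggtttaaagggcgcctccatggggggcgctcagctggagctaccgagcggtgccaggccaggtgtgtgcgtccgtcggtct
DDIT3 (chr12:57520465-57520764, minus strand): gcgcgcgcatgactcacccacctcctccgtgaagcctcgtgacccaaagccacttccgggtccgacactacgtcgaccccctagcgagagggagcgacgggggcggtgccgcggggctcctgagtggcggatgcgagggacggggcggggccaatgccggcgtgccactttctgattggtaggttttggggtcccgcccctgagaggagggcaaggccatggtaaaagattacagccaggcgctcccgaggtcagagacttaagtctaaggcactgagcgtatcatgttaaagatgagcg
ASNS (chr7:97872359-97872658, minus strand): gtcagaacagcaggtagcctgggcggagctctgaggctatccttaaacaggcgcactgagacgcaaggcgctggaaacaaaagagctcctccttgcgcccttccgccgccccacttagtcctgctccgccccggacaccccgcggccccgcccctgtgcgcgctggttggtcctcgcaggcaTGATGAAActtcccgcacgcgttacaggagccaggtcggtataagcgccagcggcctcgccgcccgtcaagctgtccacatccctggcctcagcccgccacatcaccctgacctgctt
DDIT4 (chr10:72273674-72273973, plus strand): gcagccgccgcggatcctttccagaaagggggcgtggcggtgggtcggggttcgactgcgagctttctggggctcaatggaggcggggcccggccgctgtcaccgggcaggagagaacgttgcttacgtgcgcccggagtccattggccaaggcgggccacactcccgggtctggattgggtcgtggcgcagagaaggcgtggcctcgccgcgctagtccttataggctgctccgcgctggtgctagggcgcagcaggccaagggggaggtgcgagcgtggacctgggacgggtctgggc
CHAC1 holds a match on the opposite strand (TTGCATCA) that begins 209 bases before the start, and ASNS a match on the gene's strand (TGATGAAA) 68 bases before it. DDIT3 and DDIT4 hold none in this window. The core was found in 3 of 17 promoters of the ATF4 regulators (CHAC1, ATF3 and FGF21), in 3 of 10 of amino acid synthesis genes, in 3 of 10 of amino acid transporter genes and in 6 of 16 of aminoacyl-tRNA synthetase genes. The called members that had a promoter in the table held it in 2 of 8 ATF4 regulators (CHAC1 and ATF3), in ASNS, in 0 of 3 transporters and in 0 of 1 synthetase. Among all 12633 tested genes with a promoter in the table the share was 1.76%. It was 4.74% of the 211 called lower and 2.74% of the 329 called higher that had one. A match describes these letters only and is not a site shown to be bound.

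Most of the enzymes and carriers that supply amino acids lay lower as well, in the main by less than 1.5-fold. ASNS, which makes asparagine, fell, at 152, 139.7 and 136 CPM under vehicle and 69.1, 68.5 and 68.8 CPM under SNX631 (log2 fold change -1.05 ± 0.10 SE, edgeR FDR 1.19e-10), and was the only one of 17 amino acid synthesis genes to be called. The serine pathway genes gave -0.47 for PHGDH, -0.58 for PSAT1 and -0.35 for PSPH, and the mitochondrial folate genes -0.47 for SHMT2 and -0.42 for MTHFD2, all with groups that did not overlap. The median of the list was -0.35, with 12 of 17 below 0. The 5 above 0 reached 0.46, and 3 of them lay there at an FDR under 0.05. ALDH18A1, for proline synthesis, was at 0.17.

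Among 11 amino acid transporters tested 4 fell and none rose (median -0.47). Above 0 lay 2 of the 11, up to 0.29, 1 of them at an FDR under 0.05. SLC7A11, the cystine importer that feeds glutathione synthesis, was at 101, 96.0 and 96.8 CPM under vehicle and 40.9, 37.1 and 34.6 CPM under SNX631 (log2 fold change -1.39 ± 0.14 SE, edgeR FDR 2.59e-09). SLC6A9 (glycine) fell by 0.75, SLC1A5 (glutamine) by 0.61 and SLC7A5 (leucine and other large neutral amino acids) by 0.59, whereas the neutral amino acid carrier SLC38A1 was at -0.0071. Of 20 cytosolic aminoacyl-tRNA synthetases, SARS1 fell (-0.67) and none rose, with a median of -0.10. They ranged from genes such as CARS1 (-0.53), GARS1 (-0.51), AARS1 (-0.50) and YARS1 (-0.49) to genes near or above 0 such as HARS1 (0.03) and RARS1 (0.23).

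**Figure D2:**
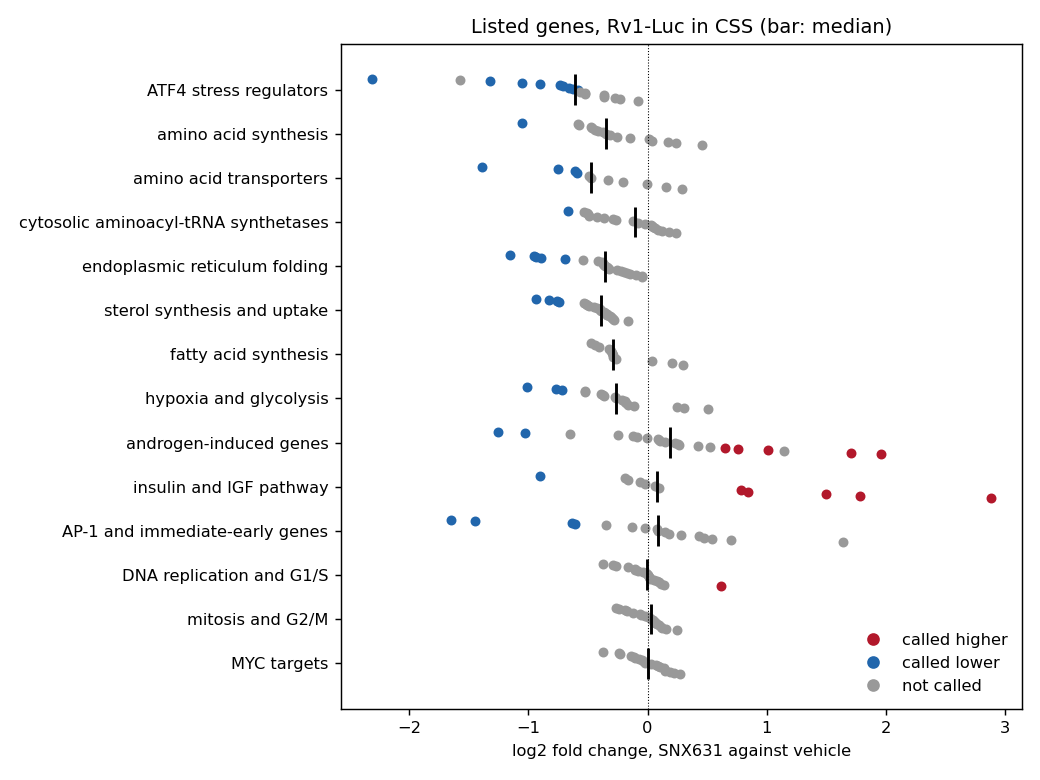
Log2 fold change under SNX631 (x axis) of every tested member of 14 gene lists in Rv1-Luc in CSS, with a black bar at each list's median. Points are genes coloured by call: the ATF4, amino acid, endoplasmic reticulum and sterol lists have medians from -0.61 to -0.10 with calls only on the lower side, and the G1/S, mitosis and MYC target lists lie around 0.

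Chaperones of the endoplasmic reticulum, which fold secreted proteins, were lower under SNX631. Of 23 endoplasmic reticulum folding genes 5 fell, none rose and all 23 lay below 0 (median -0.36). HSPA5, the chaperone BiP, was at 1320.5, 1231 and 1279 CPM under vehicle and 722, 598 and 662 CPM under SNX631 (log2 fold change -0.95 ± 0.05 SE, edgeR FDR 3.74e-22). HSP90B1, the chaperone GRP94, was at 3162, 2956 and 3078 CPM under vehicle and 1707, 1514 and 1586 CPM under SNX631 (log2 fold change -0.94 ± 0.041 SE, edgeR FDR 8.53e-27), and had fractional counts in 5 of the 6 libraries. PDIA4 was at 752, 712 and 757 CPM under vehicle and 364, 311 and 323 CPM under SNX631 (log2 fold change -1.16 ± 0.049 SE, edgeR FDR 2.79e-27). In all 3 genes every SNX631 library lay far below the lowest vehicle library. HERPUD1, for degradation of misfolded proteins, fell by 0.90 and MANF, a secreted survival factor, by 0.69. The transcription factor gene XBP1 was at -0.37, near the median of the list. The sensor genes moved less, with ERN1 at -0.26 and ATF6 at -0.18, and EDEM1 and SYVN1, for degradation, were at -0.042 and -0.048.

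Genes of sterol synthesis and uptake were lower across the whole pathway by small amounts. All 24 lay below 0 at an FDR under 0.05, 23 without overlap, while 4 passed the 1.5-fold limit (median -0.39). HMGCS1, which makes the precursor of mevalonate, was at 1213, 1018 and 1055 CPM under vehicle and 640.0, 619 and 455 CPM under SNX631 (log2 fold change -0.94 ± 0.13 SE, edgeR FDR 1.63e-06). INSIG1, which retains the sterol-sensing complex in the endoplasmic reticulum, was at 581, 490.2 and 528 CPM under vehicle and 336, 326 and 238 CPM under SNX631 (log2 fold change -0.83 ± 0.10 SE, edgeR FDR 1.48e-07). EBP, a late enzyme of cholesterol synthesis, fell by 0.74. Replicate 3 of SNX631 was the lowest of the 6 libraries for HMGCS1, INSIG1 and EBP. Without it the median of the list was -0.31, and in a fit of the 6 libraries alone HMGCS1 and INSIG1 had an edgeR FDR of 0.022 and 0.0303. Of 12 fatty acid synthesis genes none was called, and the median was -0.29: FASN was at -0.30, FADS2 at -0.47 and SCD at -0.26, and ELOVL5 lay higher at 0.30. The sterol regulatory element TCACNCCAC was found in 1 of 18 promoters of the sterol genes (SREBF2) and in 1.08% of all.

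Hypoxia and glycolysis genes had a median of -0.26 over 19 genes, of which 3 fell and none rose. NDUFA4L2, a mitochondrial subunit induced by hypoxia, was at 12.1, 11.3 and 12.6 CPM under vehicle and 5.98, 6.82 and 5.08 CPM under SNX631 (log2 fold change -1.01 ± 0.16 SE, edgeR FDR 2.32e-06). BNIP3, for mitochondrial removal, fell by 0.77 and PFKFB4, a regulator of glycolysis, by 0.72. The glycolytic enzymes lay lower within the limit, with -0.53 for ALDOA, -0.37 for GAPDH and -0.37 for LDHA. EGLN3, a hypoxia-induced prolyl hydroxylase, lay higher at 0.50. Outside the list, NDRG1, BHLHE40 and MIR210HG, which are also known hypoxia-induced genes, fell, as given above and below, and in all 3 genes vehicle replicate 3 was the highest library and SNX631 replicate 3 the lowest.

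Androgen-induced genes moved in both directions. Of 22 androgen-induced genes tested 5 rose and 2 fell, with a median of 0.19. TMPRSS2, the androgen-driven protease of prostate epithelium, was at 4.26, 5.28 and 4.16 CPM under vehicle and 18.1, 17.9 and 17.0 CPM under SNX631 (log2 fold change 1.96 ± 0.091 SE, edgeR FDR 1.18e-25). KLK3, which encodes prostate-specific antigen, was at 4.33, 5.1 and 4.62 CPM under vehicle and 8.19, 7.7 and 7.88 CPM under SNX631 (log2 fold change 0.76 ± 0.14 SE, edgeR FDR 2.34e-05). KLK4 is given above. ELL2, an elongation factor, rose by 1.01. In contrast, NDRG1 was at 98.9, 109 and 135 CPM under vehicle and 54.1, 47.9 and 41.5 CPM under SNX631 (log2 fold change -1.25 ± 0.16 SE, edgeR FDR 2.58e-07), and had fractional counts in 4 of the 6 libraries. SLC45A3, the transporter prostein, was at 30.8, 31.7 and 30.2 CPM under vehicle and 17.5, 16.0 and 12.0 CPM under SNX631 (log2 fold change -1.03 ± 0.082 SE, edgeR FDR 1.29e-15). FKBP5, which binds immunosuppressant drugs, lay higher within the limit at 0.42 with no overlap, and PMEPA1 was at 0.11 and CAMKK2 at -0.006.

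In Rv1-Luc in CSS more kallikrein genes rose than that list shows. Read after the values were seen, 5 of 10 tested were called higher and none lower, against 2.45% of all genes called higher. They were KLK4, KLK3, KLK1 (0.79), KLK15 (1.57) and the pseudogene KLKP1 (1.70). KLK2 was at 0.52 (edgeR FDR 0.0364). In other settings KLK3 lay lower, at -1.27 in Rv1-WT in FBS, -0.91 in dKO-8 and -1.92 in dKO-19. KLK2 was at -0.80, 0.029 and -0.72 in that order, whereas KLK4, KLK1, KLK15 and KLKP1 lay above 0 in each. These genes lie in 1 cluster and are related in sequence, so that reads may be shared between them. The pioneer factor FOXA1 lay lower within the limit, at 790.0, 759 and 778 CPM under vehicle and 574, 576 and 508 CPM under SNX631 (log2 fold change -0.49 ± 0.038 SE, edgeR FDR 4.19e-16).

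The HOXA cluster divided by position. Its 16 genes and transcripts tested had 3 rises and 1 fall, with a median of -0.19. In the RefSeq order, the stretch from HOTAIRM1 to HOXA11 held 12 transcripts with log2 differences from -1.14 (HOXA7, the only call among them) to 0.033 (HOXA2), and the stretch after it held 5 transcripts, all of which rose, the neighbouring homeobox gene EVX1 and its antisense transcript included. HOXA13, the most 5′ gene of the cluster, which marks the hindgut and genital tract, was at 1.69, 2.07 and 2.59 CPM under vehicle and 10.1, 8.81 and 13.3 CPM under SNX631 (log2 fold change 2.36 ± 0.15 SE, edgeR FDR 2.69e-19). EVX1 was at 0.317, 0.722 and 1.25 CPM under vehicle and 3.92, 3.43 and 5.27 CPM under SNX631 (log2 fold change 2.52 ± 0.25 SE, edgeR FDR 3.30e-12). HOTTIP (2.33), HOXA11-AS (2.51) and EVX1-AS (2.58) had means under 1 CPM in both groups. HOXA11, which HOXA11-AS overlaps, was at -0.14. The libraries were strand-specific, but the strand setting of the counting is not given in the sources used here. HOXA7 was at 3.2, 4.15 and 4.34 CPM under vehicle and 1.96, 0.974 and 2.33 CPM under SNX631 (log2 fold change -1.14 ± 0.17 SE, edgeR FDR 4.08e-07).

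**Figure D3:**
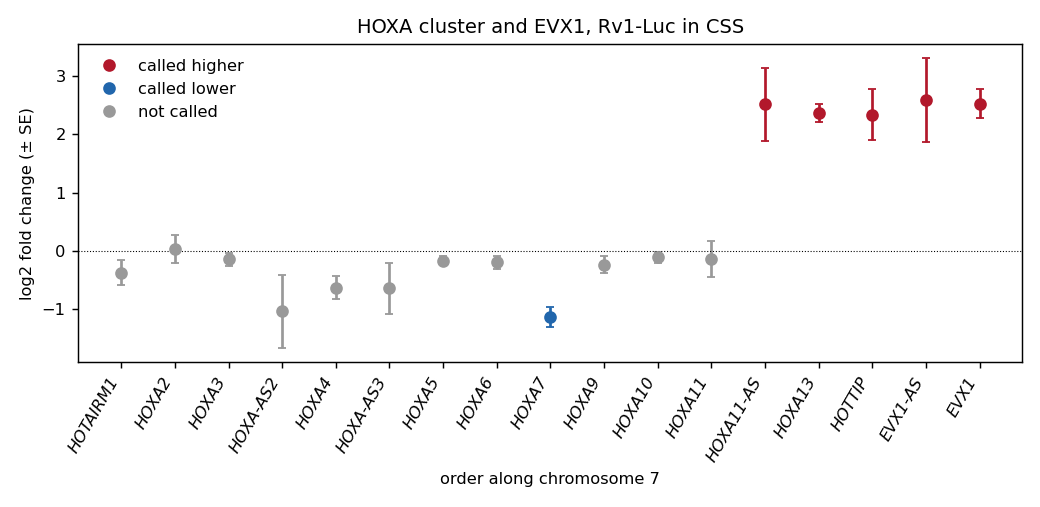
Log2 fold change under SNX631 (y axis, ± SE) of the transcripts of the HOXA cluster and EVX1 in Rv1-Luc in CSS, in their order along chromosome 7 (x axis, order only). The 5 from HOXA11-AS to EVX1 lie between 2.33 and 2.58, and the 12 before them between -1.14 and 0.03.

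Insulin and IGF pathway genes held 5 rises and 1 fall among 12. With IGFBP1 and PDK4, the binding protein gene IGFBP3 rose, at 211, 513 and 382 CPM under vehicle and 898, 766 and 1463 CPM under SNX631 (log2 fold change 1.50 ± 0.21 SE, edgeR FDR 7.53e-07). IGFBP5 rose by 0.79 and IRS2, the insulin receptor substrate, by 0.84. PCK2, the mitochondrial enzyme that makes phosphoenolpyruvate and a known ATF4 target, fell by 0.90. The receptors gave -0.19 for IGF1R and -0.024 for INSR, and neither passed the test. In a fit of the 6 libraries alone the edgeR FDR was 0.0337 for IGFBP1 and 0.0952 for IGFBP3. The median of the list was 0.08.

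Of 9 keratins tested 4 rose and none fell (median 0.84). KRT8, a main luminal keratin, was at 705, 716 and 732 CPM under vehicle and 1099, 1049.9 and 1141 CPM under SNX631 (log2 fold change 0.61 ± 0.052 SE, edgeR FDR 1.10e-13). KRT19 rose by 0.84. KRT15 (2.72) and KRT80 (2.30) rose from means under 1 CPM under vehicle, and KRT18, the usual partner of KRT8, was at 0.035. The mucosal genes MUC13 (1.61), REG4 (1.78) and PIGR (2.11, under 1 CPM) rose and AGR2, a disulfide isomerase of secretory cells, fell, at 19.4, 24.3 and 23.6 CPM under vehicle and 10.8, 10.4 and 13.0 CPM under SNX631 (log2 fold change -0.97 ± 0.13 SE, edgeR FDR 2.78e-08), among 10 tested (median 0.08, but below 0 without vehicle replicate 1 or SNX631 replicate 1). Among 15 junction and mesenchymal genes FN1, which encodes fibronectin, rose, at 3.59, 3.61 and 4.16 CPM under vehicle and 14.8, 10.6 and 10.5 CPM under SNX631 (log2 fold change 1.66 ± 0.18 SE, edgeR FDR 3.45e-09), and the claudin CLDN7 fell by 0.64 (median 0.18, but 0.046 without vehicle replicate 3, 0.061 without SNX631 replicate 3 and 0.029 in the fit of the 6 libraries). CDH1 and EPCAM were at 0.032 and 0.013. COL3A1 (3.03) and LUM (1.11), counted among the fibroblast markers, rose in the same libraries.

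Of 17 AP-1 and immediate-early genes 4 fell and none rose (median 0.09), against 4.06% of all genes called. Without SNX631 replicate 3 the list held 2 calls, with JUN and JUND lost, and a median of -0.0017. EGR1 was at 5.95, 5.64 and 5.87 CPM under vehicle and 2.01, 2.04 and 2.33 CPM under SNX631 (log2 fold change -1.45 ± 0.16 SE, edgeR FDR 4.11e-11), and EGR3 (-1.65), JUN (-0.64) and JUND (-0.61) fell too. In the Wnt list LGR5 (1.32), RNF43 (1.24) and WNT7B (0.77) rose and LEF1, a nuclear effector of the pathway, fell (-0.68) among 15 tested (median 0.05, -0.0056 without SNX631 replicate 1). Of 9 neuroendocrine genes SCGN (1.70) and CHGB (0.79) rose and none fell (median 0.30). NKILA, the long noncoding RNA that restrains NF-kappaB, was the only call among 13 genes of that pathway, at 21.9, 19.1 and 21.8 CPM under vehicle and 9.22, 8.3 and 7.46 CPM under SNX631 (log2 fold change -1.33 ± 0.09 SE, edgeR FDR 2.57e-18) (median of the list 0.099). In the interferon list MX1 rose (1.01) and IRF7 (-0.77) and IFI35 (-0.64) fell among 16 (median -0.079), and in the retinoid list CRABP1 rose (0.85) and DHRS3 fell (-0.80) among 15 (median -0.034, but above 0 on leaving out any 1 library).

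Proliferation genes had few calls, but so had all genes tested (4.06%), and these lists are too short to tell the shares apart. None of 20 mitosis genes was called (median 0.032), with MKI67 at -0.19, CDK1 at 0.059 and PLK1 at -0.24. Of 20 G1/S genes CCNE1, encoding cyclin E, rose (0.62) from a low level and the others were not called (median -0.00029). None of 20 MYC targets (median 0.0057), 13 MHC class I genes (median -0.021) and 14 heat shock genes (median -0.082) was called. MYC itself was at 323, 303 and 308 CPM under vehicle and 333, 312 and 308 CPM under SNX631, with overlapping libraries.

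The effect was set against that in FBS in the same subline, to ask whether androgen depletion changes the response. Over the 813 called genes, 795 (97.8%) had the same sign in Rv1-Luc in FBS, with Pearson r 0.852, Spearman rho 0.867 and a slope of 0.66 of the FBS effect on the CSS effect. These values are a description across 813 genes, which are not independent replicates, and the genes were chosen by their effect in CSS, so that the slope is not a test. The settings share no libraries. The difference between the media itself was tested for every gene and called for 16 (0.08%), 11 higher in CSS and 5 lower, and 1867 genes had an unadjusted p under 0.05. A fit of the 12 libraries alone called 2 genes and, of the 10 named, kept ACADL and lost the other 9, with an edgeR FDR of 0.0403 for KANSL1L, 0.185 for COLCA1, 0.47 for ADRA2A, 0.0683 for VIL1 and 0.043 for NKILA. The count was 31 without replicate 2 of SNX631 in FBS, 27 without replicate 1 of vehicle in FBS and 8 without replicate 1 of SNX631 in FBS. KANSL1L, a chromatin-associated gene, had the lowest p: its log2 fold change was 1.09 in CSS and 0.20 in FBS (difference 0.89 ± 0.10 SE, edgeR FDR 1.50e-08). COLCA1 rose in CSS (0.96) and was at -0.23 in FBS (difference 1.18 ± 0.13 SE, edgeR FDR 2.48e-07), and ADRA2A, an adrenergic receptor gene, was at 0.60 and -0.35. VIL1, the microvillus protein villin, rose less in CSS (0.75) than in FBS (1.36), and ACADL, for fatty acid oxidation, was not called in CSS (-0.09) and lay at -0.79 in FBS.

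NDRG1 was the only androgen-induced gene with a called difference between the media. In Rv1-Luc in FBS it stood at 189.6, 169 and 168 CPM under vehicle and 173, 96.2 and 228 CPM under SNX631, with a log2 difference of -0.089, against -1.25 in CSS (difference -1.17 ± 0.22 SE, edgeR FDR 0.0049). The call was lost in 9 of 18 alternatives, with a range of -1.44 to -0.86 and an edgeR FDR of 0.611 in a fit of the 12 libraries alone. NKILA fell in both media, by 1.33 in CSS and 2.02 in FBS (difference 0.69 ± 0.12 SE, edgeR FDR 0.000729). The 3 immunoglobulin-related genes among the 16 (IGHG3, JCHAIN and IGHM) rose or lay higher in CSS and lay lower in FBS, in step with the immunoglobulin counts given above.

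Compared with parental cells in the same depleted serum, the response of Rv1-Luc differed in more genes. Of the 813 genes 748 (92%) had the same sign in Rv1-WT in CSS (r 0.785, slope 0.602). The difference between the lines was called for 225 genes (1.12%), 57 higher in Rv1-Luc and 168 lower, with 4260 at an unadjusted p under 0.05. Of these 225, 94 were called in Rv1-Luc, 106 in Rv1-WT and 55 in neither. The effect was larger in Rv1-Luc in 75 of the 94. Those 94 were chosen partly by their effect in Rv1-Luc, so that this count is not a test. Signs were opposite in the lines in 133 of the 225, which includes values near 0, such as GABRE at -0.00026 in Rv1-Luc. PDIA4 had the lowest p: in Rv1-WT in CSS it stood at 174, 176 and 184 CPM under vehicle and 194, 205 and 190.5 CPM under SNX631, with a log2 difference of 0.14 against -1.16 in Rv1-Luc (difference -1.30 ± 0.071 SE, edgeR FDR 4.49e-21). Its mean level under vehicle was 740.3 CPM in Rv1-Luc and 178 CPM in Rv1-WT. The sources used here name no batch for either line, and Rv1-WT libraries held 15.12 to 18.2 M counts in CSS against 19.52 to 27.32 M in Rv1-Luc, so that line and library set cannot be told apart.

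**Figure D4:**
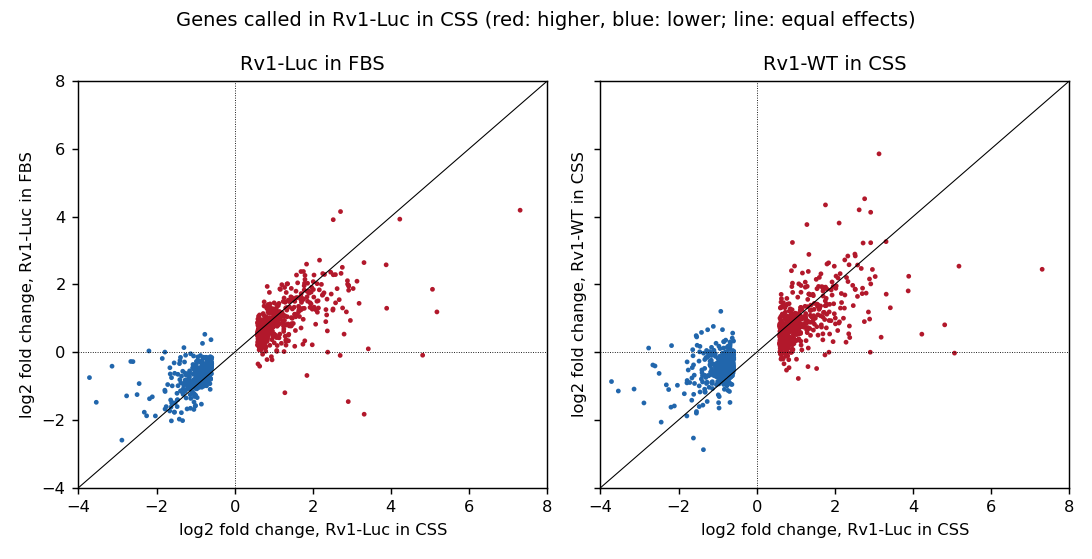
Log2 fold changes of the 813 genes called in Rv1-Luc in CSS (x axis), against the same genes in Rv1-Luc in FBS (left) and Rv1-WT in CSS (right) on the y axis. Red genes rose and blue genes fell in CSS in Rv1-Luc, the line marks equal effects, and 97.8% (left) and 92% (right) lie on the same side of 0 in both settings.

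The endoplasmic reticulum and sterol lists differed between the lines in several genes each. The endoplasmic reticulum median was -0.36 in Rv1-Luc in CSS, -0.30 in the same line in FBS and -0.0042 in Rv1-WT in CSS, and 7 of 23 genes had a called difference between the lines. HSP90B1 was at 0.11 in Rv1-WT (difference -1.04 ± 0.058 SE, edgeR FDR 4.49e-21), HSPA5 at -0.23 (difference -0.72 ± 0.072 SE, edgeR FDR 1.13e-10) and CALR, calreticulin, at 0.32 in Rv1-WT and -0.37 in Rv1-Luc. The sterol median was -0.39, -0.14 and 0.02 in the same order, with 8 of 24 differences called, among them INSIG1 (-0.11 in Rv1-WT, difference -0.72 ± 0.15 SE, edgeR FDR 0.00198). Without replicate 3 of SNX631 in Rv1-Luc the differences for INSIG1, DHCR7, FDPS, FDFT1 and CYP51A1 no longer passed, whereas those of the endoplasmic reticulum genes did. Among the latter the call for CRELD2 was lost in 6 of 18 alternatives. For HMGCS1 the Rv1-WT values were 184, 199.9 and 199 CPM under vehicle and 152, 193 and 166 CPM under SNX631, so that vehicle levels too were lower there than in Rv1-Luc. The ATF4 regulators had medians of -0.61, -0.37 and -0.39 in that order, and 4 of 18 differences were called: CHAC1, DDIT3, DDIT4 and STC2. The call for DDIT4 was lost in 13 of 18 alternatives, and that for CHAC1 without SNX631 replicate 3 of Rv1-Luc (edgeR FDR 0.0117). CHAC1 fell in Rv1-WT from 93.2 ± 2.32 to 47.8 ± 1.08 CPM (SD, n = 3), a log2 fold change of -0.96. That fall is smaller than in Rv1-Luc and starts from a higher level. The amino acid lists, unlike the ATF4 regulators, had medians near 0 in the parental line under depleted serum. These were -0.017 for synthesis, -0.060 for transporters and 0.026 for synthetases, against -0.35, -0.47 and -0.10 for Rv1-Luc. Among their genes only the transporter SLC6A9 had a called difference, lost in 11 of 18 alternatives. The gaps between medians were not tested.

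**Figure D5:**
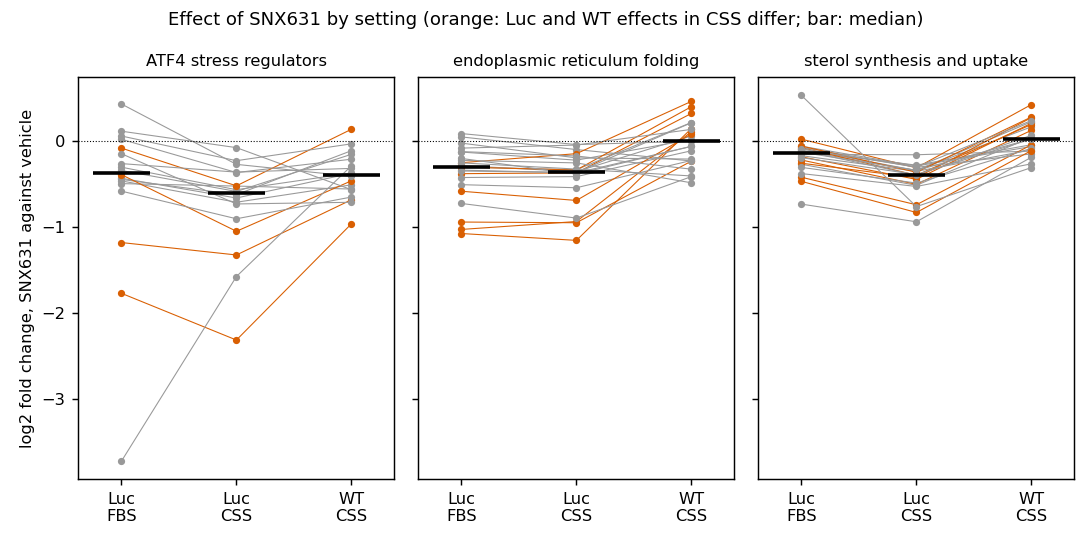
Log2 fold change under SNX631 (y axis) of each member of 3 lists in Rv1-Luc in FBS, Rv1-Luc in CSS and Rv1-WT in CSS (x axis), joined by gene. Black bars are medians and orange marks genes whose effects in CSS differed between the lines: the endoplasmic reticulum and sterol medians are -0.36 and -0.39 in Rv1-Luc in CSS and near 0 in Rv1-WT, while the ATF4 medians are -0.61 and -0.39.

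Other genes rose more in the parental line than in Rv1-Luc. SYT4, a synaptotagmin, had log2 fold changes of 1.39 in Rv1-WT and 0.30 in Rv1-Luc (difference -1.09 ± 0.07 SE, edgeR FDR 2.44e-18), TOB1, an antiproliferative gene related to BTG1, 0.94 and 0.22, and NET1, a guanine nucleotide exchange factor, 0.92 and 0.33. MYC was at 0.78 in Rv1-WT (difference -0.75 ± 0.068 SE, edgeR FDR 3.36e-12). KLK3 moved in opposite directions, with -0.53 in Rv1-WT and 0.76 in Rv1-Luc (difference 1.29 ± 0.20 SE, edgeR FDR 6.26e-06), while NDRG1 was at 0.66 in Rv1-WT (difference -1.92 ± 0.24 SE, edgeR FDR 7.89e-07). TMPRSS2 (1.94), SLC45A3 (-0.96), HOXA13 (2.58) and EVX1 (1.85) in Rv1-WT had no called difference between the lines. AOX1 (0.98 in Rv1-WT), GATA3 (1.38) and EDNRA (1.00) rose more in Rv1-Luc, with called differences of 1.91, 1.10 and 1.22. The call for EDNRA was lost on leaving out any of 10 of the 12 libraries, and that for NET1 in 8 of 18 alternatives.

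In the dKO derivatives, kinase-dead or active, the same genes had smaller median effects. These lines share no libraries with this comparison and were grown in FBS. The genes were chosen by their effect in Rv1-Luc in CSS, so that smaller values elsewhere are not a test. The 17 risers among the 30 genes named by size or p had a median log2 fold change of 2.25 in Rv1-Luc in CSS, 1.42 in dKO-19 and 0.80 in dKO-8, and 0.11 in dKO-19M and 0.077 in dKO-8M. The 13 fallers had medians of -1.66, -0.53, -0.59, -0.46 and -0.29 in the same order. BTG1, for example, was at 0.19 in dKO-8M and 0.016 in dKO-19M, PDK4 at 0.077 and 0.017, and TMPRSS2 at 0.21 and 0.11. KLK4 was at 0.36 and 0.32. Single genes spread widely: the risers ranged from -0.70 to 1.07 in dKO-8M and from -1.53 to 0.64 in dKO-19M. The fallers ranged from -1.57 to 2.63 and from -1.46 to 0.053, and 1 of them was called lower in dKO-19M. Over all 813 genes the slope on the effect in Rv1-Luc in CSS was 0.0722 in dKO-8M and 0.0758 in dKO-19M. The sign was the same in 67.3% and 65.8% of them, with Spearman rho 0.31 and 0.325. The ATF4 median was -0.18 in dKO-8M and -0.27 in dKO-19M. In the same order the sterol median was -0.15 and -0.16, against -0.14 in Rv1-Luc in FBS. The medians were -0.16 and -0.19 for amino acid transporters and -0.093 and -0.14 for amino acid synthesis. The endoplasmic reticulum medians were -0.00046 and 0.031.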

How the data were processed

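Total RNA of 48 samples (16 groups of 3) was made into strand-specific libraries, and the authors deposited expected counts per gene, with fractional values of the kind that arise when a read is split between features or positions (81.6% of nonzero values were whole). The submitters' processing notes name FastQC, cutadapt 2.8, STAR 2.7.2b, featureCounts and Subread 2.0.3, with the builds GRCh38.p13 and GRCm39 and no roles. The strand setting is not given in the sources used here, and genes with fractions are uncertain.

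The deposited counts were rounded and fitted for all 48 libraries with edgeR 4.0.16 (R 4.3.3): TMM scaling, filterByExpr (minimum count 10, total 15), a mean per group, robust quasi-likelihood F-tests (two-sided) and Benjamini-Hochberg adjustment over 20009 genes. Genes were called when they changed more than 1.5-fold with an FDR below 0.01, as in the study. The standard error is the absolute log2 fold change divided by the square root of F. Replicate pairs differed by more than counting error (chi-square per degree of freedom 1.93 to 4.84), so each counted as 1 sample. Replicate numbers were not in the fit, since same-numbered libraries were not consistently correlated. Named genes were the 12 largest rises, the 12 largest falls and the next 6 lowest p-values among called genes with a symbol, a mean of at least 1 CPM and whole counts in at least 3 of the 6 libraries, the 5 lowest p of each interaction, and all genes of the lists. Members and lists were chosen with earlier results of these data known. DESeq2 1.42.0 and other settings were alternatives. Promoters came from RefSeq GRCh38.p14. Some genes of the lists count in their totals but are not reported here by name.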

Additional observations from a re-analysis of the deposited data

Results flagged for a closer look

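The response to SNX631 in Rv1-Luc in CSS differed from that of the same subline in FBS in 16 genes, by a test of the difference itself (edgeR, FDR under 0.01 and a difference over 1.5-fold). The differences in log2 fold change, CSS minus FBS, of the genes named here were KANSL1L 0.89, ACADL 0.70, COLCA1 1.18, IGHG3 5.14, VIL1 -0.61, ADRA2A 0.94, NKILA 0.69, JCHAIN 3.26, IGHM 2.48 and NDRG1 -1.17. NDRG1 and VIL1 had the lower value in CSS. The immunoglobulin genes and JCHAIN moved with the counts of immunoglobulin transcripts given in the report, whose part was not tested.

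By the same test, 225 genes responded differently in Rv1-Luc than in Rv1-WT in CSS. The values that follow are differences in log2 fold change, Rv1-Luc minus Rv1-WT. Among chaperones and other endoplasmic reticulum genes they were PDIA4 -1.30, HSP90B1 -1.04, CALR -0.69, HSPA5 -0.72, MANF -0.77, SDF2L1 -0.74 and CRELD2 -0.61. Among sterol and fatty acid synthesis genes they were TM7SF2 -0.70, DHCR7 -0.64, EBP -0.70, CYP51A1 -0.65, FDPS -0.59, FDFT1 -0.63, LSS -0.73, INSIG1 -0.72, ACSS2 -0.93 and FADS2 -0.60. Among ATF4 regulators and amino acid carriers they were DDIT3 -0.64, STC2 -0.66, CHAC1 -1.35, DDIT4 -0.59 and SLC6A9 -0.60. Among androgen-induced and secretory genes they were NDRG1 -1.92, KLK3 1.29 and AGR2 -1.14. Among hypoxia genes they were EGLN3 -1.25 and PFKFB3 -0.82. Among transcription factors they were MYC -0.75, LEF1 -0.83, TWIST1 -0.67, GATA3 1.10 and IRF9 1.01. For the remaining named genes they were SYT4 -1.09, TOB1 -0.72, NET1 -0.59, AOX1 1.91, KANSL1L 0.73, CHGB -0.63, SMIM2-AS1 -2.04, LGR5 -1.06, IGFBP5 0.70, NIBAN1 -0.67 and EDNRA 1.22. Several of these calls depended on the setting and were lost in 13 (DDIT4), 11 (SLC6A9), 10 (NIBAN1), 10 (EDNRA) and 8 (NET1) of 18 alternatives. CRELD2 lost its call in 6 of the 18, FDPS, FADS2 and IRF9 in 5 each, and INSIG1, LGR5 and IGFBP5 in 3 each. CYP51A1 lost it in 2, and CHAC1, ACSS2, CHGB, DHCR7, FDFT1, KANSL1L and LSS in 1 each. The endoplasmic reticulum and sterol genes all had the lower value in Rv1-Luc. Line and set of libraries cannot be told apart in this comparison.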

How the results depend on the processing

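The 813 genes called in Rv1-Luc in CSS were 813 with RLE size factors, 809 with scaling by library size only, 822 with no filter on low counts, 696 when the 6 libraries were fitted alone and 734 by DESeq2, and 676 to 781 on leaving out 1 library. A test against a 1.5-fold change called 215, and an FDR under 0.05 with no fold limit 4778, because these thresholds are stricter and looser by construction. The 16 genes that differed between the media became 50 with no filter, 2 in the fit of the 12 libraries alone, 1 under the test against 1.5-fold and 102 at an FDR under 0.05, and 8 to 31 on leaving out 1 library. The 225 genes that differed between the lines became 12 and 1697 under the same thresholds, and 178 to 232 on leaving out 1 library. The cause of the losses in the fits of fewer libraries was not tested. With a replicate block the counts were 796, 20 and 237. No consistent pairing by replicate number was seen: the residuals of same-numbered libraries had correlations of 0.288, -0.0102 and -0.0136. The replicate 1 libraries correlated best with each other, but not every library correlated best with its own number. Whether same-numbered libraries were prepared together was not tested. No named gene changed sign in a comparison in which it was called. Named genes without a call were not followed through the alternatives, and values near 0 may change sign there. The median of the mucosal list was -0.077 in the fit of the 6 libraries and -0.21 to 0.29 on leaving out 1, that of the retinoid list 0.010 to 0.21, and that of the Wnt list -0.0056 to 0.15. The ATF4 median stayed between -0.63 and -0.59 in the settings run for lists, with 7 to 9 genes called lower, and the sterol median between -0.44 and -0.31, with 1 to 4. DESeq2 gave no adjusted p for 2328 genes in the comparison in CSS. The depth of 19.52 to 27.32 M counts per library leaves few reads for genes under 1 CPM, so that their values are the least certain.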
